A study of Mus musculus with 7 samples.

Results

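The 297 loci described here are stretches of left atrial noncoding RNA (ncRNA) that depend on *Tbx5*. The authors assigned them no annotated gene and marked them as bidirectional. They were taken from a deposited list of 1489 *Tbx5*-dependent loci by 2 of its columns, an empty annotation and a positive bidirectional mark. The list does not cover every ncRNA that the study called *Tbx5*-dependent. It may hold 1 direction of change only, and the others were not analysed here. The mark was set at 348 loci in all, of which the other 51 were assigned an annotated gene. Another 990 loci were unannotated and unmarked, and these served as the comparison throughout. No measured level was used to choose the members.

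Noncoding RNA was sequenced from the left atria of adult male mice of mixed background, aged 6 to 8 weeks, in 3 control and 4 *Tbx5* knockout libraries. Knockout mice carried a floxed *Tbx5* (*Tbx5* fl/fl) and *R26*-CreERt2, a tamoxifen-inducible Cre driven from a promoter active in all tissues. Controls carried *R26*-CreERt2 alone, so both groups had the Cre, and the deletion was not restricted to cardiomyocytes. The list gives positions and annotations of loci that had already passed the authors' test of knockout against control. It gives no level, fold change or read depth, so the spread between animals is unknown here, and no direction of change was assigned to any locus.

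TBX5 is a T-box transcription factor of the atria and the conduction system, and its loss in the adult heart is known for disturbing atrial rhythm. Active enhancers are commonly transcribed, often outward on both strands from a shared open region, into short RNAs that are mostly not polyadenylated. A different arrangement bears a similar name. In a divergent pair of genes, the left gene lies on the minus strand and the right gene on the plus strand, so that both start sites face the space between them.

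The bidirectional mark was compared with the genes around each locus, which the list names as neighbours. Of the 1489 loci, 1434 had both of their first 2 listed neighbours matched to GENCODE release M21. The first neighbour lay on the minus strand and the second on the plus strand at all 340 marked loci among them. This order was found at 0 of the 1094 unmarked loci. Among the members, 289 of 289 with both genes matched had it, and the other 8 had 1 gene that was not matched. The first neighbour lay to the left of the locus and the second to the right at 252 members. At another 27 members the second gene overlapped the locus, and at 10 the first did. The mark therefore coincided with a divergent order of the first 2 listed genes, whatever the strand of the locus itself. These are not always the nearest genes. XLOC_000319, for example, lay 2.34 kb from *Hspe1*, which its list names only after several others.

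**Figure D1:**
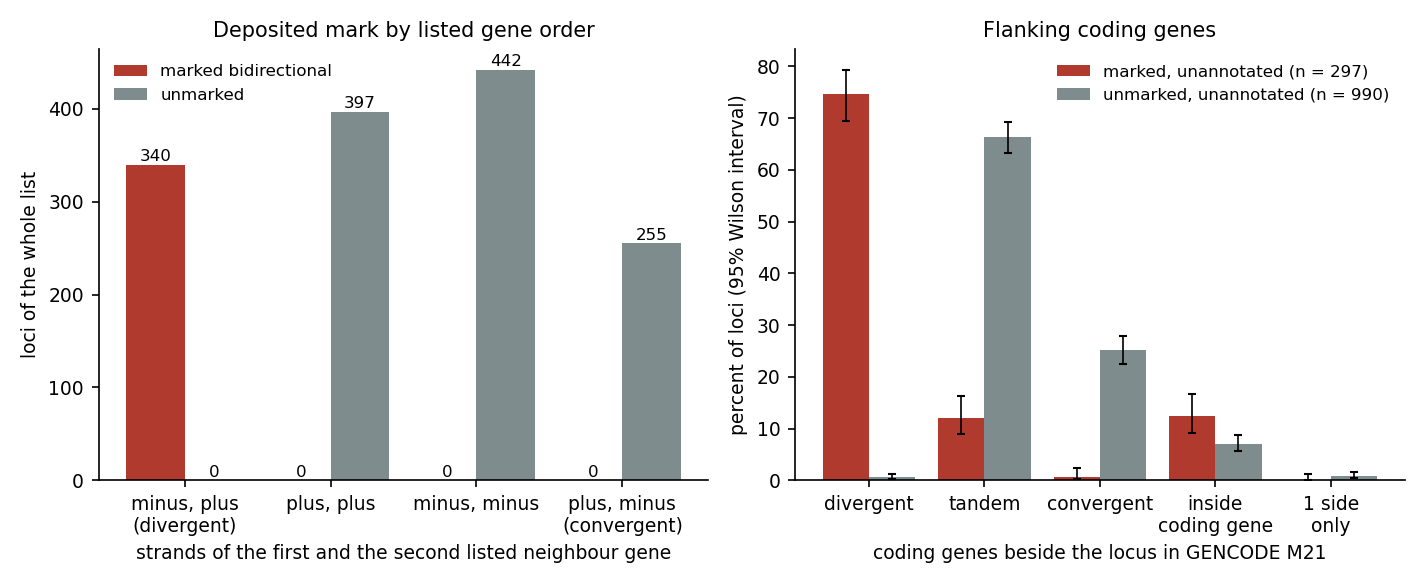
Left, loci of the whole list by the strands of their first and second listed neighbour gene, with bars for marked and unmarked loci and the count above each bar. Right, percent of the 297 members and of the 990 unmarked unannotated loci by the coding genes beside them, with 95% Wilson intervals. All 340 marked loci with matched genes stand in the divergent order, which holds 0 unmarked loci, and 74.7% of members lie between divergent coding genes.

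Loci with the same list of neighbours shared the mark. Where both first genes were matched, the gene order above fixes this, so it is no separate result. Of 196 neighbour lists that belonged to at least 2 loci, 51 were marked at every locus, 145 at none and 0 at only some. Adjacent listed loci up to 10 kb apart had the same state in 503 of 504 pairs (99.8%, 95% Wilson interval 98.9% to 99.97%). The share fell to 60.1% (53.5% to 66.3%) in 223 pairs that were 200 to 1000 kb apart. The single discordant pair up to 10 kb apart lay beside *Cdkn2b*, which encodes the cyclin-dependent kinase inhibitor p15. There, 4 plus-strand loci formed 1 cluster on chromosome 4. The 3 on the left (XLOC_038612, XLOC_038617 and XLOC_038621) had *Cdkn2a* and *Cdkn2b* as first neighbours, both on the minus strand, and were unmarked. The member XLOC_038625 had *Cdkn2b* and *Dmrta1* as first neighbours, on the minus and the plus strand, and was marked. All 4 transcripts ran in the same direction.

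The study defined bidirectional transcripts as those transcribed from both strands, and the positions were searched for this as well. Each member carries 1 strand in the list, plus for 162, minus for 134 and unassigned for 1. Of the 296 stranded members, 0 overlapped or came within 1 kb of a listed locus on the other strand, which allows a share of up to 1.01% (3 counts of the total) or 1.28% (Wilson upper limit). At up to 5 kb there were 4 members with such a partner (1.35%, 0.527% to 3.42%), against 4 of 986 unmarked loci (0.406%, 0.158% to 1.04%). At up to 20 kb the counts were 17 members (5.74%, 3.62% to 9.004%) and 11 unmarked loci (1.12%, 0.624% to 1.99%). The intervals do not overlap, but all 15 members between *Acyp2* and *Psme4* are among these 17. The 4 members at up to 5 kb lay there too, so the excess rests mostly on 1 gap. At up to 100 kb there were 28 members (9.46%, 6.63% to 13.3%) and 47 unmarked loci (4.77%, 3.60% to 6.28%). Opposite-strand RNA that did not depend on *Tbx5* would not be in the list, so transcription from both strands at the members was not tested. These intervals cover counting error only and treat loci as independent, which neighbours are not. The members are accordingly called marked loci below, and the mark is not read as transcription from both strands.

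Between the protein-coding genes of GENCODE M21, 222 of the 297 members (74.7%, 69.5% to 79.4%) lay in a divergent gap. Another 36 lay between genes in tandem, 2 between convergent genes and 37 inside a coding gene. Among the unmarked loci, 6 of 990 (0.606%, 0.278% to 1.32%) lay in a divergent gap, whereas 657 were in tandem and 249 in convergent gaps. Divergent gaps made up 23.2% of the gaps between coding genes on these chromosomes and 27.6% of their bases. Since the mark coincides with this order, the difference between the classes is given without a test.

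The 222 members in divergent gaps occupied 112 gaps, 81 of which held 1 member. Their strands were mixed, with 120 on the plus and 102 on the minus strand. Of the 222, 95 (42.8%, 36.5% to 49.4%) had the strand of the nearer flanking gene, and the other 127 ran on the opposite strand. Within 5 kb of that gene, 14 of 37 members had its strand (37.8%, 24.1% to 53.9%). These intervals treat members as independent, which members of 1 gap are not. The 13 plus-strand members between *Acyp2* and *Psme4* are all among the 127. Of the 31 gaps with several members, 28 held members of 1 strand. Both strands occurred in the other 3. These 3 lay between *Acyp2* and *Psme4*, between *Nedd9* and *Tmem170b*, and between *Bcl6* and *Lpp*. In the first, the closest opposite-strand members were 1.48 kb apart, and in the others 36.3 kb and 381 kb. With all listed loci counted, both strands occurred in 5 of 40 divergent gaps with several loci. The count was 22 of 148 in tandem or convergent gaps with several loci. The gaps of the 222 members spanned 6.14 to 4519 kb, with a median of 122 kb over members. Of these members, 93 lay in the middle 50% of their gap.

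**Figure D2:**
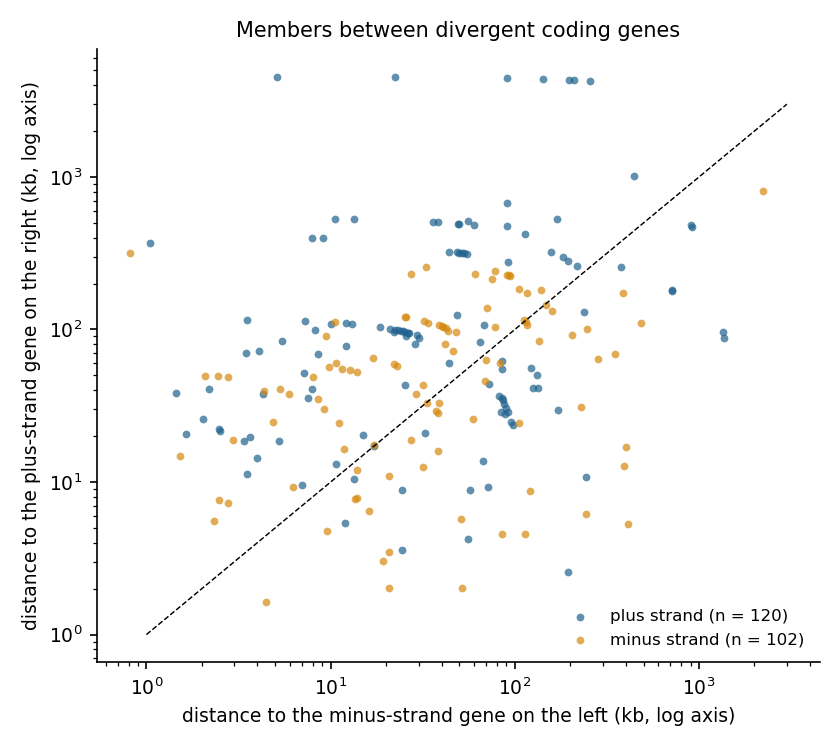
Distance in kb, on log axes, from each of the 222 members in divergent gaps to the minus-strand coding gene on its left and to the plus-strand coding gene on its right, with 120 plus-strand and 102 minus-strand members in different colours. The dashed line marks equal distances. Both strands occur on both sides of the line, and rows of points are members that share a gap.

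The sequences below show what RNA of this kind looks like where the reference holds it. They were read from GENCODE M21 transcripts whose exons enclose a member, on the strand of the member and 5′ to 3′. The first set is a run of 3 minus-strand members inside the lincRNA *Gm44275* on chromosome 6 (mm10), all linked to *Gsg1*, a gene named for its expression in germ cells. Capitals mark the T-box core AGGTGT or its reverse complement.
XLOC_048090, chr6:135312490-135312725: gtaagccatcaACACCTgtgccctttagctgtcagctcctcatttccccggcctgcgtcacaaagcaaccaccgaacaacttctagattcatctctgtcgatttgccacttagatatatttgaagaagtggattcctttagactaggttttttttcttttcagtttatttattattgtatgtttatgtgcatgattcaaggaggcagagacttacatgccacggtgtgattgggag
XLOC_048091, chr6:135312851-135313113: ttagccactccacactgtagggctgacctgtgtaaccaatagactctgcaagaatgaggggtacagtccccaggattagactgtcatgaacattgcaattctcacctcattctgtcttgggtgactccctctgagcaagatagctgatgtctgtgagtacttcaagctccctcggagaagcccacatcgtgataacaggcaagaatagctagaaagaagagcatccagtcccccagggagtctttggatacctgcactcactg
XLOC_048092, chr6:135313177-135313430: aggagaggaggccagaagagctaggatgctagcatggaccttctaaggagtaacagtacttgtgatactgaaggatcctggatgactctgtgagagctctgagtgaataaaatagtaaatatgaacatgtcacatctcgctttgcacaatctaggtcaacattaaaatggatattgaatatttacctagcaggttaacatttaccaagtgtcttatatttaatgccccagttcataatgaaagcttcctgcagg
Only the first of these, 236 bp long, held the core. The conservation scores of the 3 were 0.0722, 0.127 and 0.0150. The score is the mean phastCons value over the bases of a locus, from 0 for unconserved to 1. The lincRNA is in GENCODE M21 although the list gives the loci no annotation.

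A second set shows 2 members with high scores, both over processed pseudogenes, the reinserted copies of spliced messenger RNAs. XLOC_017052 lies on the plus strand within *Gm30584*, between *Dgkh*, its linked gene and a diacylglycerol kinase, and *Vwa8*. XLOC_048075 lies on the minus strand within *Gm8956*.
XLOC_017052, chr14:78821074-78821129: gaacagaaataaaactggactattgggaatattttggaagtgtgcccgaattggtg
XLOC_048075, chr6:133932173-133932306: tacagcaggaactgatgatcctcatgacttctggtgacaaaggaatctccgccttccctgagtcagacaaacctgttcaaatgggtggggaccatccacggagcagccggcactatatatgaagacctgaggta
Their scores were 0.856 and 0.690, over 56 and 134 bases. Reads from such copies can also align to the parent gene or to other copies, so these loci are uncertain.

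Most members were short. Their median length was 214 bp (95% order-statistic interval 183 to 263 bp, n = 297), with quartiles at 124 and 1176 bp and a range of 51 to 112172 bp. Unmarked loci had a median of 178 bp (165 to 195 bp, n = 990). On the log10 scale members were 1.24 times as long (95% interval 0.794 to 1.95, adjusted p = 0.546, n = 297 and 990), in a linear model with errors clustered over loci up to 10 kb apart and Benjamini-Hochberg adjustment over 10 measures. With 1 value per cluster in place of clustered errors the ratio passed the threshold of 0.05 (adjusted p = 0.0231, n = 197 and 640 clusters), so the call depended on how clusters were weighed.

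The longest member was XLOC_045325, which spanned 112172 bp of chromosome 6 on the plus strand and covered an annotated start of *Creb5*, a CREB-family transcription factor gene of the same strand. The next longest, XLOC_059368, spanned 37106 bp of the X chromosome between *Dynlt3*, a dynein light chain gene, and *Hypm*. XLOC_024558 spanned 17556 bp between *Ddr1*, a collagen receptor gene, and *Ier3*, an early response gene. XLOC_051641 spanned 13551 bp between *Sv2b* and *Akap13*, and XLOC_034150 spanned 12179 bp beside *Frem2*, an extracellular matrix gene. The other 3 of the 8 longest, XLOC_045340, XLOC_045356 and XLOC_045341, had 17548, 13290 and 12347 bp and lay inside *Creb5*. Thus 4 of the 8 longest members overlapped the body of 1 coding gene on its own strand, although the list gives them no annotation.

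A score was given for 245 members, with a median of 0.0755 (0.0611 to 0.0922). Of these, 216 (88.2%) scored 0.2 or less and 10 scored above 0.5. The 839 scored unmarked loci had a median of 0.0684 (0.0603 to 0.0778). The difference in mean score was -0.00523 (95% interval -0.0278 to 0.0173, adjusted p = 0.811, n = 245 and 839), and no difference was detectable. Among members, length and score had a Spearman rank correlation of 0.30 over 245 loci, many of which share a cluster. Members over 700 bp had a median score of 0.107 (0.0847 to 0.126, n = 78), and members of up to 700 bp one of 0.0484 (0.0383 to 0.0748, n = 167).

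**Figure D3:**
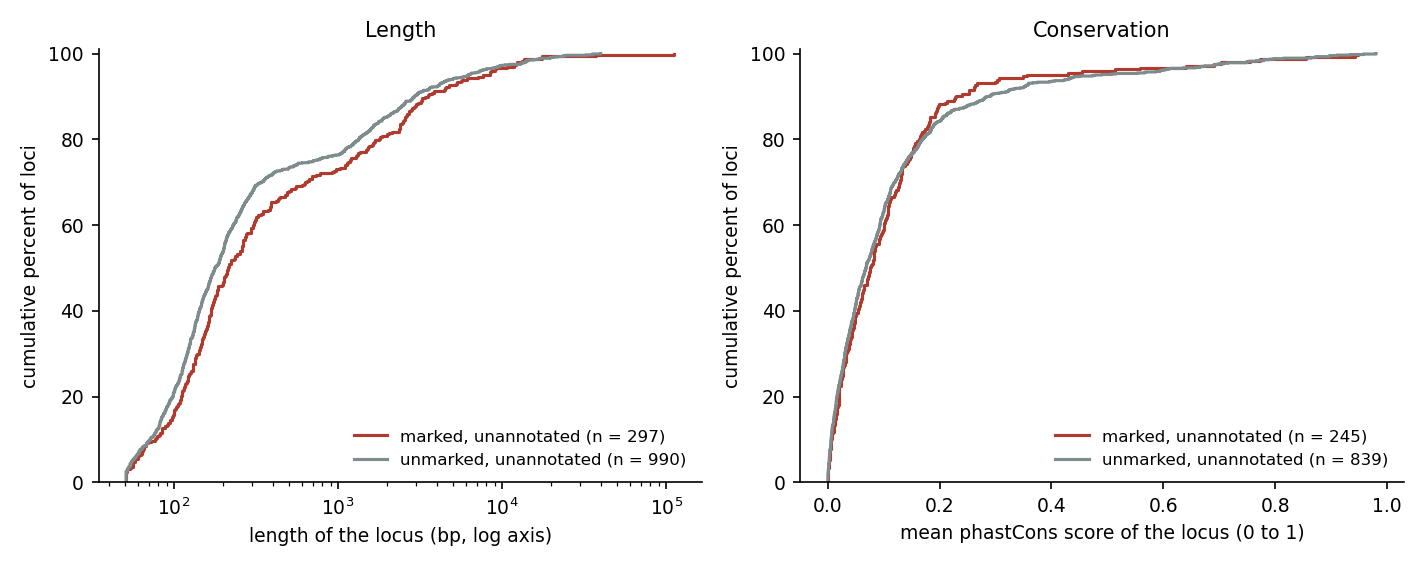
Cumulative percent of members (red) and of unmarked unannotated loci (grey) by length in bp, on a log axis, and by mean phastCons score. The curves run close together, with medians of 214 and 178 bp and of 0.0755 and 0.0684.

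The most conserved member, XLOC_016253, scored 0.948 over 108 bp on chromosome 14. It lay on the plus strand inside *Rarb*, a retinoic acid receptor gene of the minus strand, and its linked gene was *Thrb*, a thyroid hormone receptor gene, 1027 kb away. XLOC_014815 scored 0.942 over 141 bp, and its linked gene was *Vps41*, which encodes a subunit of the HOPS tethering complex of endosomes. The other 6 of the 8 highest scores, from 0.641 to 0.856, all lay over processed pseudogenes of the same strand. Besides the pair printed above these were XLOC_014304, XLOC_050083, XLOC_018060 and XLOC_027009, the third of them over a copy of *Fkbp1a*. In all, 6 of the 10 members above 0.5 overlapped a same-strand pseudogene exon, against 9 of the 235 at or below 0.5.

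GENCODE M21 was also used to see how far the members are unannotated. Of the 297, 217 (73.1%, 67.7% to 77.8%) overlapped no gene body of any kind. A same-strand exon was overlapped by 30 members. The exons belonged to pseudogenes at 15 members, to lincRNAs at 7 and to protein-coding genes at 3. Of the 990 unmarked loci, 785 (79.3%) overlapped no gene, a difference of -6.23 percentage points (95% interval -17.4 to 4.98, adjusted p = 0.546, n = 297 and 990).

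Members lay closer to coding start sites than unmarked loci did. The median distance was 25.8 kb (22.1 to 30.7 kb, n = 297) against 53.5 kb (47.4 to 60.6 kb, n = 990). On the log10 scale the distance of members was 0.476 times that of the others (95% interval 0.342 to 0.663, adjusted p = 0.000118, n = 297 and 990). A coding start lay within 10 kb of 89 members (30.0%) and of 143 unmarked loci (14.4%). A divergent order turns a start site to a locus on both sides, so this distance and the gene order cannot be told apart. The distance to the nearest coding gene body, to which the order does not contribute in this way, had medians of 15.0 kb (10.8 to 22.5 kb) and 16.1 kb (13.5 to 18.7 kb). Their ratio on the log10 scale was 0.503 (95% interval 0.159 to 1.59, adjusted p = 0.506, n = 297 and 990). This ratio includes the loci inside coding genes, at distance 0. The log10 difference was -0.30 over all loci, -0.07 outside coding genes and 0.18 in loci of up to 700 bp, so no direction is given. In tandem gaps, the 657 unmarked loci had median distances of 123 kb (92.0 to 145 kb) to the gene that faces them with its start and of 49.6 kb (38.0 to 66.5 kb) to the other. In divergent gaps, members had medians of 38.3 kb (27.3 to 49.3 kb) to the left gene and of 64.9 kb (50.1 to 91.3 kb) to the right gene.

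The 9 members within 2 kb of a coding transcript start included XLOC_045325 at *Creb5*, at 0 bp, and XLOC_023536, 376 bp from a start inside *Fer*, a tyrosine kinase gene. XLOC_038625 lay 1045 bp from *Cdkn2b*, XLOC_036231 lay 1194 bp from *Fhdc1*, and XLOC_009979 lay 1221 bp from *P2rx5*, an ATP-gated channel gene. XLOC_004562 lay 1446 bp from *Ckap4*, XLOC_010362 lay 1524 bp from *Rpl23*, a ribosomal protein gene, and XLOC_007762 lay 1636 bp from *Smtnl2*, a smoothelin-like gene. XLOC_036747 lay at the same distance from *Gnat2*, a transducin subunit gene. Of these 9, XLOC_045325, XLOC_023536, XLOC_036231 and XLOC_010362 ran on the strand of that gene and the other 5 on the opposite strand. The authors had kept loci away from the coding starts of their own annotation.

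Where a coding gene lay within 10 kb, members shared its strand less often than unmarked loci. The share was 72 of 123 (58.5%, 49.7% to 66.9%) against 321 of 406 (79.1%, 74.8% to 82.7%). The difference was -20.5 percentage points (95% interval -35.6 to -5.50, adjusted p = 0.0377, n = 123 and 406). With clusters of up to 100 kb the adjusted p was 0.101, and against all other loci of the list it was 0.103 (n = 123 members), so the call depended on these choices. Among loci outside coding genes the difference was -33.5 points (adjusted p = 5.09e-06, n = 87 and 338). A divergent order turns only gene starts to a locus, whereas tandem and convergent gaps also turn gene ends to it. This share and the gene order therefore cannot be told apart. An opposite-strand gene start lay within 5 kb of 44 of 296 members (14.9%) and of 98 of 986 unmarked loci (9.94%), a difference of 4.93 points (-0.419 to 10.3, adjusted p = 0.177, n = 296 and 986). With 1 value per cluster this difference was 9.23 points and passed (adjusted p = 0.0106, n = 197 and 636 clusters). A divergent order turns a start of the opposite strand to any stranded locus, so this share cannot be told apart from the gene order either. An opposite-strand gene body was overlapped by 9 members (3.04%) and 49 unmarked loci (4.97%), a difference of -1.93 points (-6.26 to 2.40, adjusted p = 0.546, n = 296 and 986).

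**Figure D4:**
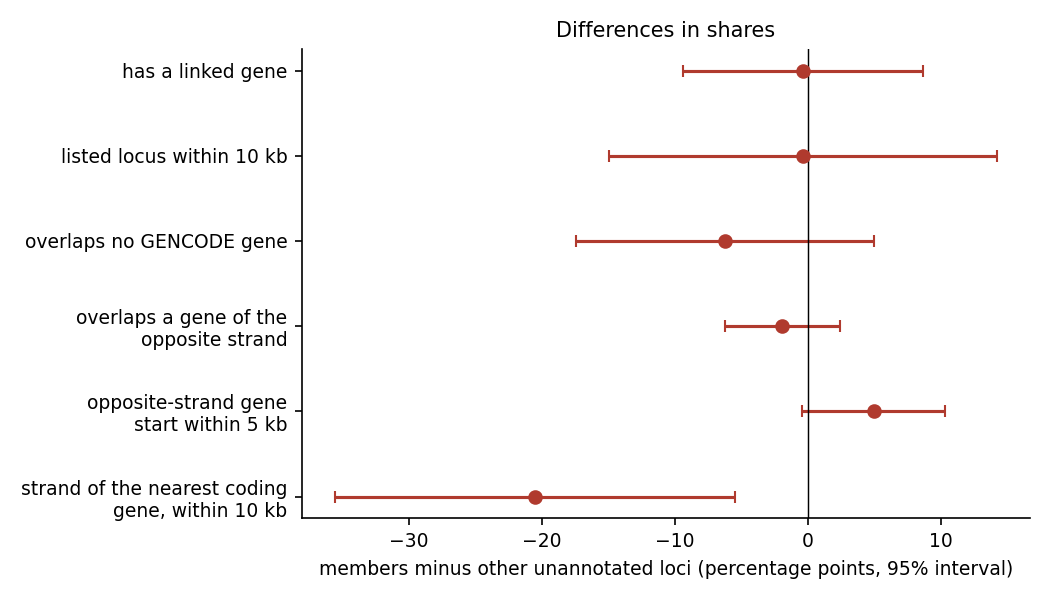
Members minus unmarked unannotated loci, in percentage points with 95% intervals from the clustered linear model, for 6 shares. The interval lies below 0 for the share on the strand of the nearest coding gene (-20.5 points) and spans 0 for the other 5. The share below 0 and the opposite-strand start share cannot be told apart from the gene order.

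Members gathered in groups. With members up to 10 kb apart counted as 1 group there were 198 groups, 162 of them single members, and 16 groups of at least 3 held 95 members (32.0%). Of the 36 groups of at least 2, 34 ran on 1 strand only, and the exceptions were the *Acyp2* group and a *Creb5* group with an unstranded locus. Another listed locus lay within 10 kb of 138 members (46.5%) and of 464 unmarked loci (46.9%), a difference of -0.404 points (-15.0 to 14.2, adjusted p = 0.957, n = 297 and 990).

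The largest group lay inside *Creb5* on chromosome 6, where 21 members overlapped the gene body. It held 16 plus-strand members over 108 kb, with a median length of 3029 bp and scores from 0.0301 to 0.227. A second group there held 4 over 142 kb, among them XLOC_045325 and the unstranded XLOC_048435. The listed first neighbours of both were *Jazf1*, a zinc finger protein gene of the minus strand, and *Creb5* itself. All but XLOC_048435 had the strand of *Creb5*, so for 20 members RNA of the host gene and a separate noncoding RNA cannot be told apart from positions. The same limit holds for members on the strand of other host genes. These were 5 inside *St5*, 4 inside *Psd3*, 3 inside *Rtp4*, and 1 each inside *Fer*, *Maml2* and *Map3k13*.

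Between *Acyp2*, an acylphosphatase gene, and *Psme4*, a proteasome activator gene, 14 members spanned 26.3 kb of chromosome 11, beginning 3.50 kb from *Acyp2*. Of the 15 members of that gap, 13 ran on the plus strand, away from *Acyp2* and towards *Psme4*. Between *Sv2b*, a synaptic vesicle protein gene, and *Akap13*, a kinase-anchoring scaffold gene, 10 members spanned 24.3 kb of chromosome 7 on the minus strand, with lengths from 136 to 4539 bp. A further pair there, 2784 and 13551 bp long, also ran on the minus strand.

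Upstream of *Gata5*, a zinc finger transcription factor gene of heart development, 2 groups lay on chromosome 2 before *Slco4a1*, an organic anion transporter gene. The nearer held 4 members from 13.0 kb on, and the farther 8 members from 82.4 kb on. The farther 8 lay closer to *Slco4a1* than to *Gata5*, down to 23.6 kb from it. All 12 ran on the plus strand, that of *Slco4a1* and opposite to *Gata5*, with scores of up to 0.167. None had a linked gene. Beside *Ankrd1*, a stress-responsive ankyrin repeat gene of cardiac muscle, 3 minus-strand members began 112 kb upstream, on the strand of the gene and between it and *Pcgf5*, a Polycomb subunit gene.

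Of the remaining groups, 6 short plus-strand members (54 to 178 bp) lay 43.8 kb from *Cdkn2b*, and 5 plus-strand members lay between *Smtnl2* and *Ggt6*, from 1.64 kb on. On chromosome 7, 4 minus-strand members of 170 to 10654 bp lay between *Emsy* and *Thap12*, and on the X chromosome 4 plus-strand members of 2398 to 37106 bp lay between *Dynlt3* and *Hypm*. Groups linked to *Mylk4*, *Vps41*, *Gsg1* and *Psd3* are described with those genes.

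The list gives some loci a linked gene, a *Tbx5*-dependent coding gene in the neighbourhood. The heading of that entry names 1 direction of change. The shares below therefore do not count every locus near a *Tbx5*-dependent gene. Of the members, 70 had one (23.6%, 19.1% to 28.7%), as did 237 unmarked loci (23.9%, 21.4% to 26.7%). The difference was -0.370 points (-9.41 to 8.67, adjusted p = 0.957, n = 297 and 990). The 81 pairs of member and linked gene involved 52 genes, 40 of them with 1 member. Measured to the closest edge of its body, the gene lay at a median of 76.7 kb (53.4 to 119 kb, n = 81). In 47 pairs it lay within 100 kb. In 60 pairs the member was upstream of the gene, in 16 downstream and in 5 inside it. In 49 pairs both had the same strand. The linked gene was 1 of the first 2 listed neighbours in 35 pairs (43.2%), and in 30 of these the member was upstream, the side to which a divergent order turns the start.

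*Mylk4*, of the myosin light chain kinase family, had 8 linked members, the most of any gene, out of 9 loci linked to it in the whole list. They lay on its own strand 124 to 153 kb upstream of its start, between *Serpinb1c* and *Serpinb6b*, in 2 groups of 4 with lengths from 135 to 649 bp. *Sp4*, a zinc finger transcription factor gene, had 7, all on the opposite strand and 10.6 to 60.2 kb upstream. *Vps41* had 5 on the opposite strand, 225 to 319 kb upstream, and their scores ranged from 0.00239 to 0.942. *Psd3*, an exchange factor gene for ARF6, had 4 inside its body and on its strand, 0.464 to 69.0 kb from the start of the gene record, which is its outermost base. Distances for linked genes use that start, while distances to the nearest coding start use every coding transcript, so XLOC_055160 lay 464 bp from the former and 2302 bp from the latter. *Gsg1* had the 3 printed above, on its strand and 58.1 to 58.8 kb upstream, with *Pbp2* and *Emp1* as their flanking genes.

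The next in number, each with 2 members, were *Ltn1*, *Pfkfb1*, *Rbks*, *Rxfp1*, *Slc7a15*, *Usp16* and *Vdr*. The same 2 members, XLOC_021332 and XLOC_021334, served *Ltn1* and *Usp16*, which encode a ribosome quality control ligase and a deubiquitinase, so these pairs are not separate. *Vdr*, the vitamin D receptor gene, had 1 member upstream at 51.5 kb and 1 downstream at 83.5 kb. *Pfkfb1*, a regulator of glycolysis, had members at 84.4 and 93.5 kb on the opposite strand.

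Genes of 12 cardiac and cell type lists were looked up among the members' neighbours. Only *Mylk4* and *Scn4b*, which encodes a sodium channel beta subunit, were linked to members, the latter to XLOC_058241 at 123 kb on the opposite strand. That locus lay closer to *Cd3e*, a T-cell receptor subunit gene, at 4.85 kb. Of 34 cardiac transcription factor genes, 10 neighbour some locus of the whole list and 1, *Gata5*, neighbours members. Of 28 calcium handling genes the counts were 8 and 1 (*Itpr2*, an inositol trisphosphate receptor gene, at 99.3 kb from XLOC_046551). Of 38 fibroblast and matrix genes they were 17 and 3, with XLOC_046622 5.28 kb upstream of *Col1a2*, a type I collagen gene, and XLOC_035280 28.8 kb upstream of *Cyr61*, a matricellular protein gene. Of 28 energy metabolism genes they were 12 and 3, with XLOC_008154 43.0 kb from *Pdk2* and XLOC_050782 77.5 kb from *Ckm*, the muscle creatine kinase gene. *Fosb*, an immediate early transcription factor gene, lay 17.2 kb from the last of these loci. Among 30 sarcomere and muscle kinase genes, 5 neighbour some locus and 2, *Mylk4* and *Tnnt2*, neighbour members. Of 24 natriuretic and stress genes the counts were 10 and 2, and of 22 immune genes 7 and 3. Of 30 ion channel and conduction genes they were 3 and 1. The endothelial, smooth muscle, neuronal and cell cycle lists had 0 genes beside members. Beside any locus of the whole list they had only 2, 2, 0 and 1 genes. These counts describe positions, and no list was tested.

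The list gives 5.18 neighbours for a member and 4.19 for an unmarked locus on average, a difference of 0.982 genes (0.119 to 1.85, adjusted p = 0.0859, n = 297 and 990), which did not pass the threshold of 0.05. Among loci outside coding genes it was 1.22 genes and passed (adjusted p = 0.0246, n = 260 and 920).

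The starts of linked genes were searched for motifs, whether or not they flank the members. RefSeq promoter windows (GRCm38.p6) were found for 41 of the 52 linked genes, and the 250 bases before the start were read on both strands. The T-box core AGGTGT occurred in 4 of the 41 (9.76%, 3.86% to 22.5%) and in 11.99% of 27025 genes with a window. The longer form AGGTGTGA, which contains the core, occurred in 1 (2.44%, 0.432% to 12.6%) and in 1.14% of all. The GATA motif AGATAA occurred in 5 of the 41 (12.2%, 5.32% to 25.5%) and in 10.3% of all. The promoter with the longer form is that of *Clcn1*, the skeletal muscle chloride channel gene, whose linked member XLOC_045157 lay 11.4 kb downstream. It is printed beside that of *Mylk4*, which has most members and held 0 cores, with core matches in capitals.
Clcn1, chr6:42286435-42286684, plus strand: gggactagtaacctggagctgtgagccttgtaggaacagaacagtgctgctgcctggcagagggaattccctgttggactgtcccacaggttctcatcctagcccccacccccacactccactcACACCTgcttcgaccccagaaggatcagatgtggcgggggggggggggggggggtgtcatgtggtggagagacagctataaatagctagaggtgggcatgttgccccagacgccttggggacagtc
Mylk4, chr13:32783965-32784214, minus strand: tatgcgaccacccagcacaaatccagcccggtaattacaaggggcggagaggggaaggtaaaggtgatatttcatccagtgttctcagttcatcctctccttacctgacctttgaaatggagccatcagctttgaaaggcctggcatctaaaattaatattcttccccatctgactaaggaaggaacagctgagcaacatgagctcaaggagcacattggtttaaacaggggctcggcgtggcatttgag
A match is a description of these letters only.

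Within the members, those in divergent gaps were shorter than the 75 with other surroundings, with medians of 185 bp (164 to 222 bp, n = 222) and 1126 bp (258 to 2049 bp, n = 75). The second class includes the 21 members inside *Creb5*, and the difference was not tested. Linked members had a median length of 192 bp (141 to 261 bp, n = 70) and members without a linked gene one of 222 bp (185 to 306 bp, n = 227). Plus-strand members had a median of 237 bp (186 to 313 bp, n = 162) and minus-strand members one of 191 bp (163 to 260 bp, n = 134). These intervals overlap for both splits. Members were most numerous on chromosomes 6 (40 of 104 listed loci), 7 (31 of 80) and 11 (27 of 75), which hold the *Creb5*, *Akap13* and *Psme4* groups, and fewest as a share on chromosome 10 (8 of 159, 5.03%, 2.57% to 9.61%).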

How the data were processed

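The libraries, 3 of control and 4 of *Tbx5* knockout left atrium, were made after removal of ribosomal and polyadenylated RNA. Reads were aligned by the authors to the mm10 assembly using TopHat2 (versions 2.0.13 and 2.0.10 in the submitters' processing notes), after which they built transcripts with Cufflinks, counted them with featureCounts, tested genotypes with DESeq and kept loci away from coding starts. They deposited 1 list of loci in 2 identical copies. The deposited phastCons column holds a conservation score, a mean per locus taken by the authors on mm9. The list gives no level or fold change, and no p-value of the authors was used here.

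Members were rows with no annotation and a positive bidirectional mark. Members, gene lists and comparisons were chosen with earlier results of these data known. Positions (1-based, mm10) were compared with GENCODE M21, and neighbour symbols were matched by name or RefSeq synonym (6595 of 6656). Each measure was compared between 297 members and 990 unmarked loci by least squares with cluster-robust errors (statsmodels 0.14.6, clusters up to 10 kb) and Benjamini-Hochberg adjustment over 10 measures. Distance to gene bodies was adjusted with these as an 11th measure. The fit was tested on simulated data. Shares carry 95% Wilson intervals. Flank order and distance to gene bodies were added after the positions had been seen.

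Named members were the 8 longest, the 8 best conserved, the 8 closest to a coding start (9 with a tie), groups of at least 3, the 8 genes with most members (12 are named because of ties) and those beside listed genes. The rule's members with a T-box match could not be chosen, since no genome was used here.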

Additional observations from a re-analysis of the deposited data

How the results depend on the processing

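The 11 differences were recomputed under 83 alternatives, of which 60 kept the direction and the side of the threshold of 0.05. The shorter distance to a coding start did so under every alternative run, but cannot be told apart from the gene order. The lower share on the strand of the nearest coding gene passed neither against all other loci of the list (-16.1 percentage points) nor with clusters of up to 100 kb (-20.5 points). With 1 value per cluster, length (0.11 on the log10 scale) and the share with an opposite-strand start within 5 kb (9.23 points) passed. So did the latter (7.34 points) and the number of listed neighbours (1.22) among loci outside coding genes, the same 2 (8.85 points and 1.33) among loci that overlap no GENCODE gene of their strand, and the opposite-strand gene share against all other loci (-5.46 points). The cause of these changes was not tested. The share on the strand of the nearest coding gene and the opposite-strand start share also cannot be told apart from the gene order.

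The other changes were of sign, in differences that did not pass the threshold. Among loci that overlap no GENCODE gene of their strand, length changed sign (-0.00503 on the log10 scale). So did the linked share (0.769 points) and the intergenic share (2.92) there. Conservation changed in loci of at least 100 bp (0.00181). The linked share changed outside coding genes (1.25 points). It also changed with divergent members set against unmarked loci in tandem or convergent gaps (1.15). The clustered share changed against all other loci (1.75), with 1 value per cluster (1.48) and within 1 kb (0.471). Against all other loci the intergenic share changed (7.21), and in loci of up to 700 bp the opposite-strand gene share (1.01). The opposite-strand start share changed within 1 kb (-1.56). The distance to a gene body changed with 1 value per cluster (0.10 on the log10 scale). It also changed in loci of up to 700 bp (0.18). The settings on coding genes, gene order and pseudogenes were chosen after seeing the data.

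The planned comparisons of GC content, CpG ratio, repeats and motifs over the loci were not run, since they need a genome. No paired analysis was possible because the list holds no value per library. Without read counts the depth behind each locus is unknown, and the errors describe the spread between loci, not between animals.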
